A study of Mus musculus with 30 samples.

Results

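PD-1 blockade was examined as an average over tumours of both resistant genotypes of MC38, a mouse colon carcinoma line. Libraries were taken by their labels alone, with no measured value: 10 from knockout tumours of mice given an antibody against PD-1 (aPD1) were set against 10 from knockout tumours of mice given an IgG1 control antibody, so 20 of the 30 libraries of the series entered the comparison. The 4 groups were B2mKO with aPD1, B2mKO with IgG1, Jak1KO with aPD1 and Jak1KO with IgG1, with 5 libraries each, and genotype was a blocking term. The other 10 libraries, 5 WT with aPD1 and 5 WT with IgG1, served to ask whether the average effect in knockout tumours differed from that in WT tumours. All tumours were subcutaneous, in female C57BL/6 mice aged 6 to 8 weeks, which received 100 µg of antibody intravenously on days 7, 10 and 13, and were taken on day 14. The B2mKO and Jak1KO cells carry mutations that inactivate the named gene. The labels do not say whether each line is 1 clone, nor whether the 5 libraries of a group are 5 mice, so the p-values reflect only how much these samples vary, which may be technical. Host cells in the tumours still carry both genes.

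PD-1 is an inhibitory receptor of activated T cells, and its blockade releases T cells that already recognise a tumour. That recognition needs peptides on MHC class I, whose invariant light chain is B2m. Interferon gamma from T and NK cells signals through Jak1, and raises antigen presentation, guanylate-binding proteins and PD-L1 in the cells that receive it. Loss of B2m or of Jak1 is a known route by which tumours escape checkpoint blockade.

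The libraries held 18881630 to 23161312 counts in knockout tumours with aPD1, 17629795 to 25944701 in knockout tumours with IgG1, and 17833233 to 25658875 in WT tumours. Levels below are CPM, a gene's share of the library's scaled total counts in the usual CPM unit, and effects are log2 fold changes of aPD1 over IgG1. B2m was at 560 to 962 CPM in B2mKO tumours with aPD1 and 500 to 746 CPM with IgG1, against 1960 to 5450 CPM in WT tumours. Jak1 was at 64.9 to 81.8 CPM in Jak1KO tumours with aPD1 and 64.3 to 77.1 CPM with IgG1, against 182 to 255 CPM in WT tumours, so both targeted genes were low in every library labelled as their knockout. Low B2m was not particular to B2mKO tumours. In Jak1KO tumours B2m was at 932 to 1710 CPM, also below every WT library and overlapping the B2mKO range. Jak1 was at 199 to 322 CPM in B2mKO tumours. The library B2mKO aPD1 replicate 2 stood apart: its median Spearman correlation with the other libraries of its group was 0.948, against 0.983 to 0.993 for the other 19 knockout libraries. WT IgG1 replicate 3 stood apart in the WT tumours. Chi-square over degrees of freedom, which grows as counts of 2 libraries disagree, was 169 to 203 against its group. The group's other pairs had 19.6 to 47.4. WT IgG1 replicate 3 also had the fewest genes detected of all libraries, 20466. Summed skeletal muscle transcripts exceeded 100 CPM in 4 knockout libraries, 2 with aPD1 and 2 with IgG1. The deposited table of WT aPD1 replicate 2 names another library's alignment file in its header, so counts, list medians and differences that involve WT tumours are also given without it.

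The first question was which transcripts aPD1 changed in the knockout tumours on average. None of the 15077 genes passed edgeR's quasi-likelihood test at an adjusted p under 0.05, that is 0% of those tested, and the smallest adjusted p was 0.895. At an unadjusted p under 0.05 the test took 341 genes (2.26%), 207 higher (1.37%) and 134 lower (0.889%). DESeq2 and limma voom also passed 0 genes after adjustment, with 369 and 337 at an unadjusted p under 0.05. By chance alone such a threshold takes about 5% of genes. The edgeR share was below that, so these counts are not read as a surplus. The median effect over all genes was 0.0070, and the median absolute effect of 0.081 was below the median SE of 0.11. For 14533 genes (96.4%) the 95% interval of the pooled effect lay within a 2-fold change in either direction, and among the 10654 genes averaging 5 CPM or more this held for 10594 (99.4%). No gene (0%) had aPD1 and IgG1 libraries that did not overlap, in the same direction, in both genotypes. Of the same 15077 genes, 74 had groups that did not overlap within B2mKO tumours, and 62 within Jak1KO tumours. Among so many genes some groups of 5 separate by chance, and the number to be expected was not computed. These counts are therefore not read as an effect.

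The genes with the smallest p for a higher level under aPD1 were of mixed function. Mmd, a membrane protein linked to monocyte to macrophage differentiation (chromosome 11, 90249456 to 90278589, GRCm38), was at 30.5, 39.4, 31.9, 31.9 and 37.0 CPM in B2mKO tumours with aPD1, against 26.1, 27.7, 29.3, 28.7 and 26.4 CPM with IgG1. In Jak1KO tumours it was at 45.5, 43.9, 40.7, 41.4 and 51.3 CPM with aPD1, against 44.0, 38.5, 36.4, 39.7 and 40.4 CPM with IgG1. The groups did not overlap in B2mKO tumours and overlapped in Jak1KO tumours. The pooled effect was 0.23 ± 0.06 (SE; 95% interval 0.11 to 0.36, unadjusted p = 0.000645, edgeR adjusted p = 0.895). Dppa4, a chromatin factor of pluripotent cells, was at 4.36 to 6.95 CPM in B2mKO tumours with aPD1 and 2.42 to 4.26 CPM with IgG1, again without overlap. In Jak1KO tumours its range was 0.435 to 1.18 CPM with aPD1 and 0.328 to 0.749 CPM with IgG1, and the pooled effect was 0.61 ± 0.16. Npl, the lyase that breaks down sialic acid, ranged over 1.26 to 6.56 CPM in the 10 knockout libraries with aPD1 (median 3.06) and 0.561 to 3.25 CPM in the 10 with IgG1 (median 1.52), with a pooled effect of 0.97 ± 0.31. The others were Rwdd2a (0.54), the zinc finger gene Zfp35 (0.21), Nxpe5 (0.59), Ccdc125 (0.59), Tmem62 (0.34) and the translation initiation factor gene Eif2d (0.41), with 95% intervals above 0 and edgeR adjusted p of 0.895 each. Myh7, the slow myosin heavy chain of skeletal and cardiac muscle, also met the rule, but it was at 7.6 CPM in B2mKO aPD1 replicate 3 and 3.12 CPM in Jak1KO aPD1 replicate 1, both rich in muscle transcripts, and at 0 to 1.17 CPM in the other 8 aPD1 libraries and 0 to 0.635 CPM in the 10 IgG1 libraries.

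The genes with the smallest p for a lower level under aPD1 were led by Nab1. This gene encodes a corepressor of the EGR transcription factors (chromosome 1, 52457294 to 52500679) and was at 73.6, 63.5, 68.3, 69.7 and 78.2 CPM in B2mKO tumours with aPD1, against 98.1, 82.1, 84.7, 84.1 and 84.1 CPM with IgG1. Its level in Jak1KO tumours was 73.9, 72.2, 68.8, 63.4 and 73.3 CPM with aPD1, against 77.2, 78.8, 71.0, 73.0 and 79.4 CPM with IgG1. The groups were apart in B2mKO tumours and overlapped in Jak1KO tumours, and the pooled effect was -0.20 ± 0.05 (unadjusted p = 0.00135, edgeR adjusted p = 0.895). Ap1ar, a regulator of adaptor complex AP-1 traffic, was at 36.7 to 45.0 CPM over the 10 aPD1 libraries and 44.6 to 49.6 CPM over the 10 IgG1 libraries, so the arms overlapped by less than 1 CPM (pooled effect -0.14 ± 0.04). The calcium-activated chloride channel gene Ano1 was at 0.556 to 1.02 CPM with aPD1 and 0.82 to 1.45 CPM with IgG1 (-0.46 ± 0.14). The potassium channel gene Kcnh1 had a pooled effect of -0.79, with -0.88 in B2mKO and -0.06 in Jak1KO tumours. Fam83c (-0.55), Zfp981 (-0.54), the mitochondrial proline tRNA mt-Tp (-0.40), Zbtb11os1 (-0.32), the RNA-binding protein gene Rbpms2 (-0.20) and the homeobox gene Pitx1 (-0.20) completed this set. Antisense transcripts such as Zbtb11os1 cannot be told apart from overlapping genes, because reads were counted without strand.

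**Figure D1:**
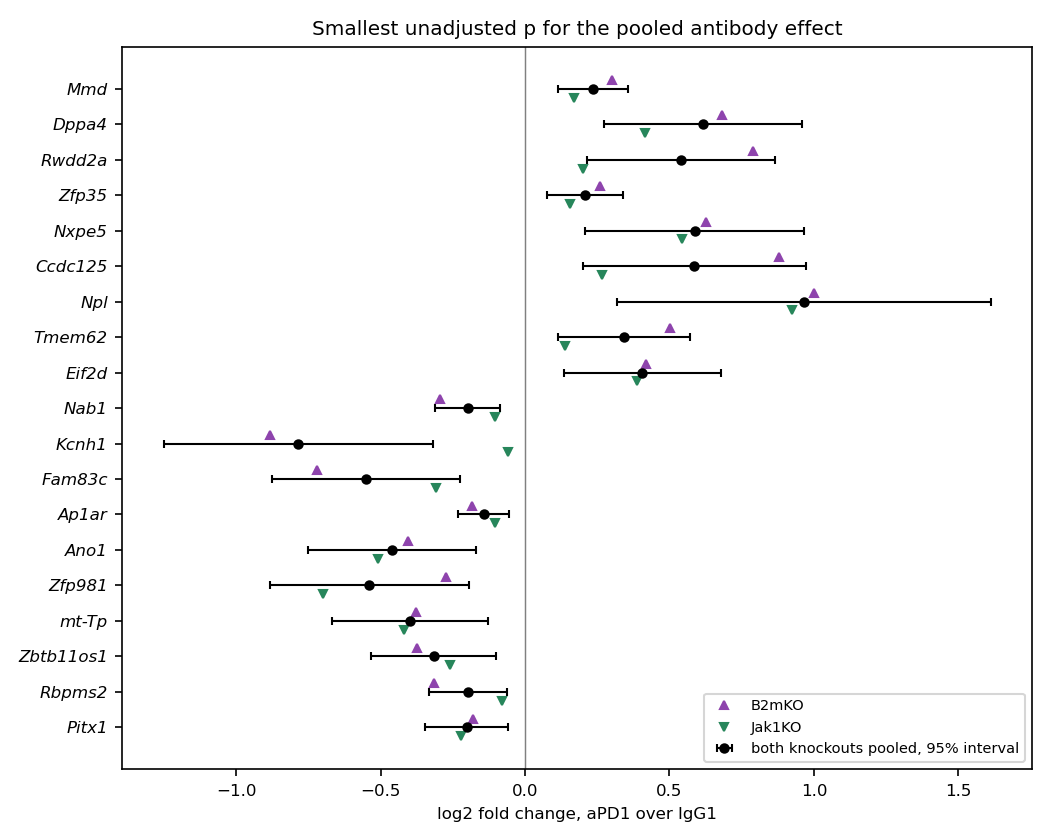
Pooled log2 fold change of aPD1 over IgG1 with its 95% interval (black points and bars, 10 libraries against 10), and the effects within B2mKO (upward triangles) and Jak1KO tumours (downward triangles), for the genes with the smallest unadjusted p in each direction, Myh7 left out. Intervals of single genes leave 0, for example 0.11 to 0.36 for Mmd, but each edgeR adjusted p was 0.895.

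The genes of the pathway that PD-1 blockade acts on did not pass either. Pdcd1, which encodes PD-1, was at 2.54, 3.48, 0.78, 1.31 and 1.0 CPM in B2mKO tumours with aPD1 and 1.43, 1.86, 1.31, 0.953 and 1.65 CPM with IgG1. Jak1KO tumours had 6.84, 0.643, 1.4, 1.06 and 5.12 CPM with aPD1 and 4.59, 1.1, 2.4, 3.32 and 2.88 CPM with IgG1. The pooled effect of Pdcd1 was 0.20 ± 0.37 (95% interval -0.57 to 0.97), -0.08 without Jak1KO aPD1 replicate 1 and -0.11 with limma voom. Ifng, the cytokine, was at 0.054, 0.245, 0, 0.485 and 0.131 CPM in B2mKO tumours with aPD1 and 0.0572, 0.0431, 0, 0.159 and 0.0943 CPM with IgG1. In Jak1KO tumours its level was 3.21, 0.148, 0.92, 0.0484 and 1.87 CPM with aPD1 and 1.48, 0.449, 0.423, 0.0922 and 1.88 CPM with IgG1. The Ifng groups overlapped in both genotypes (pooled effect 0.65 ± 0.56, 95% interval -0.50 to 1.81). That estimate was 0.09 without Jak1KO aPD1 replicate 1, 0.40 without Jak1KO IgG1 replicate 4 and 1.15 without Jak1KO IgG1 replicate 5. The gene Gzmb encodes granzyme B, a killing protease of T and NK cells. It was at 51.7, 85.6, 12.6, 63.6 and 44.6 CPM in B2mKO tumours with aPD1 and 56.1, 93.1, 27.1, 30.2 and 28.6 CPM with IgG1. The Jak1KO values were 41.6, 2.92, 10.1, 2.81 and 27.0 CPM with aPD1 and 7.05, 5.39, 7.0, 3.37 and 8.23 CPM with IgG1, with 2 aPD1 libraries below every IgG1 library and 3 above. The pooled effect of Gzmb was 0.74 ± 0.44 (edgeR adjusted p = 0.895), and 0.41 without Jak1KO aPD1 replicate 1 and 0.31 with limma voom.

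Cd274, which encodes PD-L1, was at 38.9, 45.7, 28.1, 54.0 and 43.5 CPM in B2mKO tumours with aPD1, against 63.6, 49.1, 32.8, 64.2 and 38.9 CPM with IgG1. Jak1KO libraries held 46.1, 17.1, 25.4, 15.7 and 38.0 CPM with aPD1, against 25.8, 23.8, 20.8, 28.7 and 32.0 CPM with IgG1. The antibody groups overlapped in both genotypes, and the 95% interval of the pooled effect (-0.06 ± 0.18) was -0.45 to 0.32. For B2m the pooled effect was 0.17 ± 0.12 and for Jak1 it was -0.05 ± 0.07.

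Of 29 interferon gamma response genes tested, 0 passed, 19 had a pooled effect above 0 and the median was 0.064, against 0.0070 and 52.3% above 0 over all genes. Their summed level was 3462, 3756, 2605, 3699 and 3402 CPM in B2mKO tumours with aPD1, against 4075, 3784, 3062, 3883 and 3527 CPM with IgG1. In Jak1KO tumours the sums were 2066, 957.7, 1351, 923.6 and 1675 CPM with aPD1, against 1474, 1058, 1226, 1027 and 1708 CPM with IgG1. Neither genotype had antibody groups apart, and the level in Jak1KO tumours was below that in B2mKO tumours in every library. Within the list, Irf8, a transcription factor of myeloid cells, had a pooled effect of 0.20 ± 0.12 and the guanylate-binding protein gene Gbp9 -0.13 ± 0.09. The estimate of Gbp2b was 1.57 ± 0.82, with levels of 0.0872 to 35.6 CPM with aPD1 and 0.0431 to 7.19 CPM with IgG1. It was -0.20 without Jak1KO aPD1 replicate 1, the library at 35.6 CPM, and -0.51 without the 4 muscle-rich libraries, a comparison chosen after seeing the data. Reads of the Gbp genes that fit several copies were not counted, so their levels are uncertain. Of 24 type I interferon response genes, 12 were above 0 with a median of 0.0061 (-0.0098 without B2mKO aPD1 replicate 2), and 1, the RNA sensor gene Ddx58, had an unadjusted p under 0.05 (-0.23 ± 0.11). Over all genes 0.889% were lower at that p. The median of the type I interferon list was -0.19 in B2mKO tumours and 0.20 in Jak1KO tumours.

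Genes of antigen presentation were close to 0 for class I and wide in spread for class II. Of 22 MHC class I presentation genes 14 were above 0, with a median of 0.034 (6 genes and -0.021 without B2mKO aPD1 replicate 2), and the peptide transporter gene Tap2 had an unadjusted p under 0.05 (-0.13 ± 0.06, 95% interval -0.25 to -0.0010). Over all genes 0.889% were lower at that p. Tap1, the partner of Tap2, had a pooled effect of -0.02 ± 0.08, the peptide loading factor gene Tapbp -0.13 ± 0.08, and the nonclassical class I gene H2-T23 0.33 ± 0.20. All 9 MHC class II genes tested were above 0 (median 0.40, and 0.19 without B2mKO aPD1 replicate 2), yet no member had an unadjusted p under 0.05, and the summed level ran over 172.1 to 1163 CPM in B2mKO tumours with aPD1 and 109.3 to 436.1 CPM with IgG1, and over 144.6 to 2527 CPM in Jak1KO tumours with aPD1 and 193.8 to 2009 CPM with IgG1. H2-Ab1, which encodes a chain of the class II molecule I-A, had an effect of 0.60 ± 0.56, with 1.22 in B2mKO and -0.0032 in Jak1KO tumours. In these bulk samples, fewer cells of a type and less RNA per cell cannot be told apart.

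In the lymphocyte lists 0 members passed. Of 22 T cell genes 19 were above 0 (median 0.22), of 20 cytotoxic effectors 19 (median 0.28), and of 14 NK cell genes 13 (median 0.23). Among them 1 gene had an unadjusted p under 0.05, Gzma, another granzyme of cytotoxic cells, at 0.435 to 6.32 CPM with aPD1 and 0.415 to 3.71 CPM with IgG1 (0.70 ± 0.31). At that p 1.37% of all genes were higher and 0.889% lower, so single members are not read as results about their lists. Cd3d, part of the T cell receptor complex, had an effect of 0.70 ± 0.42, the receptor gene Klrk1 of NK and T cells 0.41 ± 0.31, and Tbx21, a transcription factor of cytotoxic lymphocytes, 0.36 ± 0.27. The T cell median was 0.54 in B2mKO tumours and 0.026 in Jak1KO tumours. Without B2mKO aPD1 replicate 2 the medians were 0.20 for T cells, 0.11 for cytotoxic effectors and 0.015 for NK cells, and 7 of the 14 NK genes were above 0. Of 18 checkpoint and exhaustion genes 14 were above 0 (median 0.12, or 0.071 without B2mKO aPD1 replicate 2), with the ectonucleotidase gene Entpd1 at 0.31 ± 0.17. Of 7 regulatory T cell genes 5 were above 0 (median 0.12), and the cytokine gene Il10 had an unadjusted p under 0.05 (0.87 ± 0.40) at levels no higher than 1.15 CPM. Of 5 B and plasma cell genes 2 were above 0, and Pax5, the B cell lineage factor, had a pooled effect of -0.67 ± 0.29 (unadjusted p = 0.0284) at levels of 0 to 1.21 CPM with aPD1 and 0 to 1.77 CPM with IgG1.

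The macrophage and monocyte list held the most members at an unadjusted p under 0.05, 4 of 20 (20%) beside 1.37% of all genes in that direction. All 4 were higher with aPD1, and 0 of them passed after adjustment (edgeR adjusted p = 0.895 each). Cd163, a haemoglobin scavenger receptor of tissue macrophages, was at 1.03, 1.18, 4.68, 1.02 and 2.27 CPM in B2mKO tumours with aPD1 and 0.858, 0.604, 1.17, 1.31 and 1.93 CPM with IgG1. In Jak1KO tumours it was at 2.31, 1.63, 1.53, 1.31 and 1.13 CPM with aPD1 and 1.37, 0.799, 1.32, 0.83 and 0.877 CPM with IgG1. Its groups overlapped in both genotypes (pooled effect 0.71 ± 0.28). The lysosomal membrane gene Cd68 was at 108 to 165 CPM with aPD1 and 92.5 to 140 CPM with IgG1 (0.20 ± 0.08), the Fc receptor gene Fcgr1 at 46.4 to 136 CPM and 47.8 to 134 CPM (0.33 ± 0.14), and the complement gene C1qa at 324 to 828 CPM and 326 to 535 CPM (0.27 ± 0.13). Of the 20 genes 19 were above 0, and the median was 0.17, with 0.29 in B2mKO and 0.045 in Jak1KO tumours. The summed level of the list was 4965, 8698, 5786, 6111 and 5564 CPM in B2mKO tumours with aPD1, against 3674, 3621, 5536, 4723 and 5152 CPM with IgG1. In Jak1KO tumours it was 4698, 3687, 3754, 3363 and 5459 CPM with aPD1, against 4587, 3609, 5191, 5893 and 3895 CPM with IgG1. The aPD1 libraries were thus mostly above the IgG1 libraries in B2mKO tumours and mixed with them in Jak1KO tumours. The highest of these sums was that of B2mKO aPD1 replicate 2. Without it the list's median was 0.14, 19 of 20 genes stayed above 0, and 2 had an unadjusted p under 0.05. Of 12 dendritic cell genes 9 were above 0 (median 0.31, or 0.16 without B2mKO aPD1 replicate 2), with the cytokine receptor gene Flt3 at 0.57 ± 0.26 (unadjusted p = 0.0383) and Clec9a, a receptor of cross-presenting dendritic cells, at 0.52 ± 0.25. Of 11 neutrophil genes 8 were above 0 (median 0.072).

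**Figure D2:**
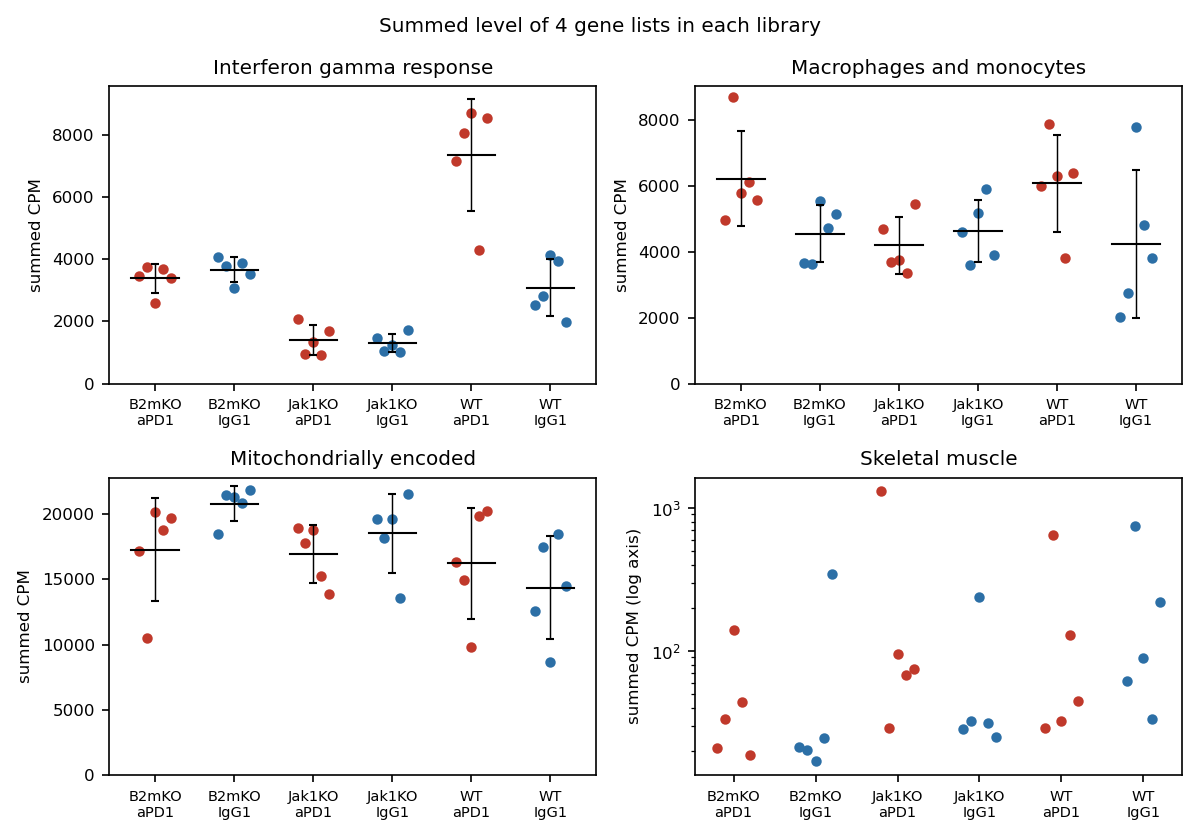
Summed CPM of 4 gene lists in each library (points, replicates 1 to 5 from left to right in each group), with mean and SD where the axis is linear; the skeletal muscle axis is logarithmic. In knockout tumours the aPD1 (red) and IgG1 (blue) points of the interferon gamma response overlap in both genotypes, and B2mKO aPD1 replicate 2 is the highest for macrophages (8698 CPM) and the lowest of the knockout libraries for mitochondrial transcripts (10490 CPM).

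Protease genes, named in the title of the series, also had 0 members past the threshold. Of 15 cathepsin genes 12 were above 0 (median 0.096), with Lgmn, the lysosomal protease legumain, at 372 to 715 CPM with aPD1 and 360 to 580 CPM with IgG1 (0.22 ± 0.10, unadjusted p = 0.0401), Ctsb at 0.16 ± 0.08 and Ctsc at 0.27 ± 0.15. The cathepsin median was 0.019 without B2mKO aPD1 replicate 2. Of 18 matrix metalloproteinases and their TIMP inhibitors 10 were above 0 (median 0.044, or -0.012 without B2mKO aPD1 replicate 2), with Mmp14, a membrane-bound collagenase, at -0.19 ± 0.12. Of 20 ADAM and ADAMTS proteases 8 were above 0 (median -0.011), with Adamts12 at -0.31 ± 0.16, and the median was 0.052 without B2mKO aPD1 replicate 2 and 0.0036 with upper-quartile scaling. Of 16 plasminogen system and serpin genes 14 were above 0 (median 0.13), with the plasminogen activator gene Plat at 0.17 ± 0.09, and without B2mKO aPD1 replicate 2 that median was 0.013. Of 21 surface and serine peptidases 10 were above 0 (median -0.017), and this median was 0.0019 with upper-quartile scaling.

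Among stromal genes the single member at an unadjusted p under 0.05 was Eln, which encodes elastin. Over all genes 1.37% were higher at that p. Eln was at 28.8, 11.7, 23.2, 38.4 and 34.8 CPM in B2mKO tumours with aPD1, against 15.6, 22.2, 11.3, 11.9 and 16.3 CPM with IgG1. Its level in Jak1KO tumours was 68.9, 74.9, 248, 204 and 68.5 CPM with aPD1, against 36.5, 130, 69.7, 87.0 and 61.0 CPM with IgG1. In B2mKO tumours 4 of the 5 aPD1 libraries lay above every IgG1 library, in Jak1KO tumours 2 did, and the pooled effect was 0.81 ± 0.27 (unadjusted p = 0.00759, edgeR adjusted p = 0.895). Mfap4, another elastic fibre gene, had an effect of 0.48 ± 0.23 and the proteoglycan gene Lum 0.39 ± 0.25. Over the 19 fibroblast and matrix genes 12 were above 0 (median 0.020), and of 17 collagens 5 were above 0 (median -0.079). The summed collagen level was 32990, 13060, 30280, 36100 and 31850 CPM in B2mKO tumours with aPD1, against 40720, 46490, 27870, 31560 and 24770 CPM with IgG1, and 17760 to 19100 CPM in Jak1KO tumours with aPD1 against 15790 to 19870 CPM with IgG1. The lowest of these was B2mKO aPD1 replicate 2, without which the collagen median was -0.015. Of 14 endothelial genes 9 were above 0 (median 0.12), and of 17 hypoxia genes 12 (median 0.031).

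In lists of growth, stress and mitochondrial genes 0 members passed. Of 21 mitosis and replication genes 15 were above 0 (median 0.026), with the mitotic kinase gene Cdk1 at 0.13 ± 0.10. All 15 genes of the unfolded protein and integrated stress response were above 0 (median 0.11), none with an unadjusted p under 0.05. The endoplasmic reticulum chaperone gene Hspa5 was at 1200 to 2210 CPM with aPD1 and 1040 to 1810 CPM with IgG1 (0.14 ± 0.07), and Chac1, a target of the stress factor Atf4, had an effect of 0.22 ± 0.14. The list's median was 0.074 without B2mKO aPD1 replicate 2, with 14 of 15 above 0. All 7 mitochondrially encoded genes tested were below 0 (median -0.21), none with an unadjusted p under 0.05, and mt-Nd4, a subunit of complex I, had an effect of -0.25 ± 0.14. Their summed level was 17200, 10490, 20150, 18800 and 19670 CPM in B2mKO tumours with aPD1, against 18480, 21450, 21330, 20860 and 21830 CPM with IgG1. In Jak1KO tumours it was 18940, 17810, 18770, 15260 and 13880 CPM with aPD1, against 19630, 18180, 19640, 13560 and 21550 CPM with IgG1. Without B2mKO aPD1 replicate 2 the median was -0.13. These genes share the mitochondrial genome, so they are not 7 independent observations.

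Transcripts of skeletal muscle differed widely among libraries. The summed level of 18 skeletal muscle genes was 20.74, 33.55, 139.6, 43.58 and 18.53 CPM in B2mKO tumours with aPD1, against 21.23, 20.28, 16.82, 24.54 and 345.1 CPM with IgG1. In Jak1KO tumours it was 1312, 28.96, 95.02, 67.45 and 74.86 CPM with aPD1, against 28.53, 32.15, 236.7, 31.46 and 24.95 CPM with IgG1. All 17 genes tested had a pooled effect above 0, with a median of 0.96, beside medians of -0.75 in B2mKO and 2.48 in Jak1KO tumours, and 0 had an unadjusted p under 0.05. Without the 4 libraries above 100 CPM, a comparison chosen after seeing the data, 0 genes of the whole transcriptome passed, and 347 had an unadjusted p under 0.05. In that fit the interferon gamma response median was -0.033 and 10 of 29 genes were above 0. Without Jak1KO aPD1 replicate 1 alone the muscle median was -0.55 and 3 of 17 genes were above 0. The part of muscle tissue in other results was not tested. Adipocyte genes had a median of -0.089 (7 genes), erythroid genes -0.094 (5 genes) and skin keratinocyte genes -0.085 (3 genes), and of simple epithelium genes 2 were tested, Epcam at 0.25 ± 0.62 and Cdh1 at -0.06 ± 0.22.

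The pooled effect is 1 term fitted across 2 genotypes, whose own effects were estimated in the same 20 libraries. It is not the plain mean of those 2 effects. A genotype with few counts of a gene weighs less, as for Kcnh1 above. In the comparison with WT the knockout average is the plain mean of the 2 effects. Within B2mKO tumours 0 genes passed edgeR's test (smallest adjusted p = 0.708), with 827 (5.49%) at an unadjusted p under 0.05, and DESeq2 also passed 0, with 851. The edgeR count of 827 was 542 without B2mKO aPD1 replicate 2, 510 without B2mKO IgG1 replicate 2, 1434 without B2mKO aPD1 replicate 1, 1310 without B2mKO aPD1 replicate 3 and 1304 without B2mKO aPD1 replicate 4. Within Jak1KO tumours 0 passed (smallest adjusted p = 1), with 179 (1.19%) at an unadjusted p under 0.05, and DESeq2 passed 0, with 157. The edgeR count of 179 was 320 without B2mKO aPD1 replicate 2 and 269 without Jak1KO aPD1 replicate 2. Without a filter on low counts it was 753, of 33246 genes tested instead of 15077. The 2 effects had the same sign for 8274 genes (54.9%). The test of their difference, B2mKO minus Jak1KO, also passed 0 genes (smallest adjusted p = 0.980). At an unadjusted p under 0.05 there were 352 (2.33%) by edgeR and 369 by DESeq2, which passed 0 too. The edgeR count of 352 was 579 without B2mKO aPD1 replicate 1 and 533 without B2mKO aPD1 replicate 3. Without a filter on low counts it was 948, again of 33246 genes tested. By p the first was Fabp4, a fatty acid carrier of adipocytes and macrophages, at 11.9 CPM with aPD1 and 8.86 CPM with IgG1 in B2mKO tumours, and 9.94 and 15.8 CPM in Jak1KO tumours (difference 1.08 ± 0.25, edgeR adjusted p = 0.98). Without B2mKO aPD1 replicate 1 it passed, as the single gene that did (difference 1.24 ± 0.19, edgeR adjusted p = 0.0337). Next were Vnn3 (2.62 ± 0.66), the acetyltransferase gene Sat2 (0.68 ± 0.18), the death receptor gene Tnfrsf10b (-0.37 ± 0.10), the leukocyte receptor gene Lilra5 (1.56 ± 0.41) and Zfp580 (0.90 ± 0.24), all at an edgeR adjusted p of 0.98. Left out in turn, the other libraries gave 0 genes each.

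The second question was whether the knockout average differed from the effect of aPD1 in WT tumours, where 679 genes passed (4.38%), 581 higher (3.75%) and 98 lower. That count was 229 without WT aPD1 replicate 2, 366 without WT aPD1 replicate 1, 388 without WT aPD1 replicate 5, 348 without WT IgG1 replicate 1, 379 without WT IgG1 replicate 5 and 1110 without WT aPD1 replicate 4, and 63 genes passed when the 10 WT libraries were fitted alone. Of the 581, 562 were tested in the knockout libraries. Their median effect was 0.098 in knockout tumours (0.096 in B2mKO and 0.077 in Jak1KO) against 1.11 in WT tumours (0.963 without WT aPD1 replicate 2). In the pooled fit 416 (74.0%) lay above 0, against 52.3% of all genes. This share and the knockout median were not rerun without B2mKO aPD1 replicate 2. Genes that vary together are not independent observations, so the share is not read as an effect. An unadjusted p under 0.05 was reached by 12 of the 562 genes (2.14%) in the higher and 4 (0.712%) in the lower direction, against 1.37% and 0.889% of all genes. Of the 98 genes lower in WT tumours 94 were tested, with a median of 0.026 in knockout tumours against -0.56 in WT tumours. These genes were chosen by the WT effect, so their WT medians are a description.

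**Figure D3:**
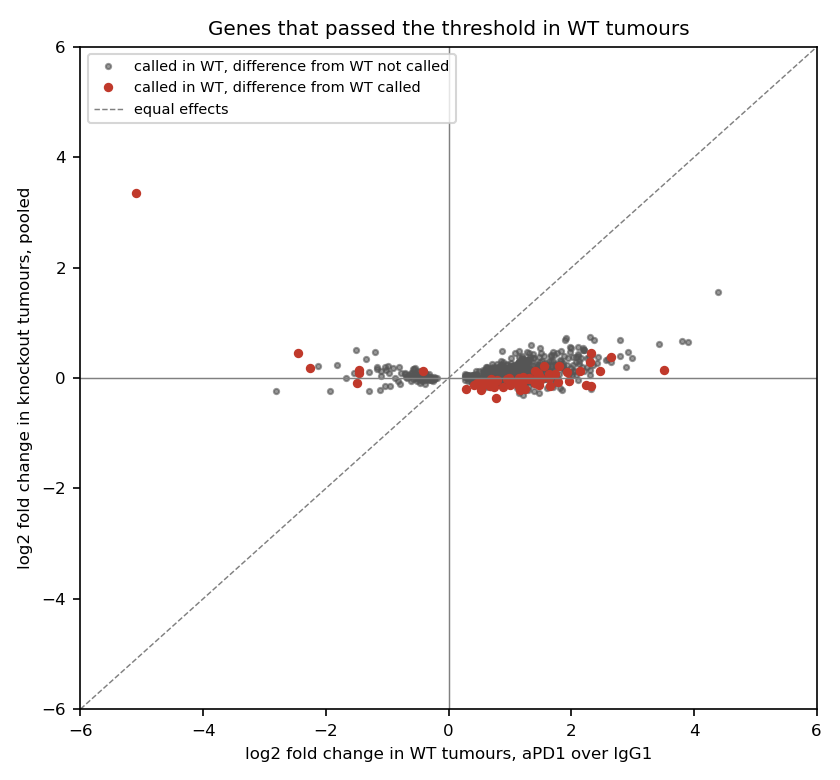
Each point is a gene that passed the threshold in WT tumours and was tested in knockout tumours, with its log2 fold change of aPD1 over IgG1 in WT (horizontal) and pooled over both knockouts (vertical). Red points also passed the test of the difference, and the dashed line marks equal effects. Most points lie near 0 on the vertical axis (medians 0.098 and 0.026 for genes higher and lower in WT); the point at the upper left is Myh7.

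The difference itself, knockout average minus WT, passed for 70 of 15505 genes (0.451%), 62 of them lower (0.4%) and 8 higher, and 69 of the 70 had also passed in WT tumours. Both tests used the same WT libraries, so that overlap is not separate evidence. The median absolute pooled effect of the 70 genes in knockout tumours, where tested, was 0.10. The number depended on which libraries were used, and without WT aPD1 replicate 2 the 70 estimates kept their sign with edgeR adjusted p of 0.0731 to 0.152. Without WT aPD1 replicate 2, WT aPD1 replicate 5, WT IgG1 replicate 1 or WT IgG1 replicate 5, 0 genes passed, and without WT aPD1 replicate 1 it was 5 (Cd274, Gbp7, Il2rg, Irgm1 and Tap2). It was 358 without WT aPD1 replicate 4, 222 without WT IgG1 replicate 4 and 151 without Jak1KO aPD1 replicate 1. It was 60 without B2mKO aPD1 replicate 4, 47 without Jak1KO aPD1 replicate 5, 65 without Jak1KO IgG1 replicate 2, and 13 to 41 without any other single library. Without WT IgG1 replicate 3, which stood apart from its group, the number was 18. The estimates moved less: over all 38 alternatives that of Cd274 stayed between -2.22 and -1.89, that of Gbp7 between -1.52 and -1.27, and that of Irgm1 between -1.24 and -1.02, each past the threshold in 33 of the 38, with edgeR, DESeq2 or limma adjusted p of at most 0.0761.

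Cd274 was at 196, 161, 138, 59.3 and 176 CPM in WT tumours with aPD1, against 33.5, 34.2, 41.5, 52.6 and 26.2 CPM with IgG1, with no overlap between the WT groups (difference -2.02 ± 0.35, 95% interval -2.74 to -1.31, edgeR adjusted p = 0.0217). Gbp7, a guanylate-binding protein of cell-autonomous immunity (chromosome 3, 142530342 to 142550149), was at 189, 126, 137, 190 and 191 CPM in B2mKO tumours with aPD1 and 238, 214, 172, 214 and 209 CPM with IgG1. Jak1KO tumours had 51.3, 30.2, 49.4, 30.3 and 43.9 CPM with aPD1 and 52.6, 36.1, 42.7, 32.8 and 54.7 CPM with IgG1. In WT tumours Gbp7 was at 333, 338, 302, 218 and 384 CPM with aPD1 and 130, 150, 136, 190 and 95 CPM with IgG1, with no overlap (difference -1.38 ± 0.23, edgeR adjusted p = 0.0217). Irgm1, an immunity-related GTPase (chromosome 11, 48861968 to 48871683), was at 181 to 282 CPM in B2mKO tumours with aPD1 and 245 to 299 CPM with IgG1, and at 78.8 to 131 CPM in Jak1KO tumours with aPD1 and 77.7 to 119 CPM with IgG1. It was at 307 to 545 CPM in WT tumours with aPD1 and 172 to 306 CPM with IgG1 (difference -1.11 ± 0.20). The groups of Irgm1 were apart in WT tumours and overlapped in both knockouts.

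Il2rg, the common gamma chain of cytokine receptors, was at 31.8, 34.4, 22.5, 32.3 and 30.2 CPM in B2mKO tumours with aPD1 and 30.6, 43.9, 35.5, 35.6 and 44.5 CPM with IgG1. The Jak1KO values were 28.1, 11.5, 18.7, 12.5 and 24.4 CPM with aPD1 and 19.4, 14.5, 16.5, 14.2 and 21.0 CPM with IgG1, against 28.5 to 71.8 CPM in WT tumours with aPD1 and 15.6 to 27.3 CPM with IgG1 (difference -1.50 ± 0.27). Differences were also negative for Samhd1, a nucleotide hydrolase that restricts viruses (-1.21 ± 0.23), the transporter gene Slco3a1 (-1.83 ± 0.34), Ttc39b (-0.56 ± 0.10), the bacterial sensor gene Nod2 (-1.50 ± 0.29) and Tap2 (-0.68 ± 0.13), each with an edgeR adjusted p of 0.0217 or 0.0223. Kcne3, a potassium channel subunit, went the other way. It was at 2.75, 11.0, 3.22, 5.24 and 4.53 CPM in B2mKO tumours with aPD1 and 3.49, 1.68, 3.19, 4.13 and 2.17 CPM with IgG1, and at 1.2 to 2.95 CPM in Jak1KO tumours with aPD1 and 1.26 to 3.18 CPM with IgG1. In WT tumours Kcne3 was at 0.22 to 1.55 CPM with aPD1 and 2.06 to 5.02 CPM with IgG1 (difference 2.84 ± 0.53, edgeR adjusted p = 0.0217).

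**Figure D4:**
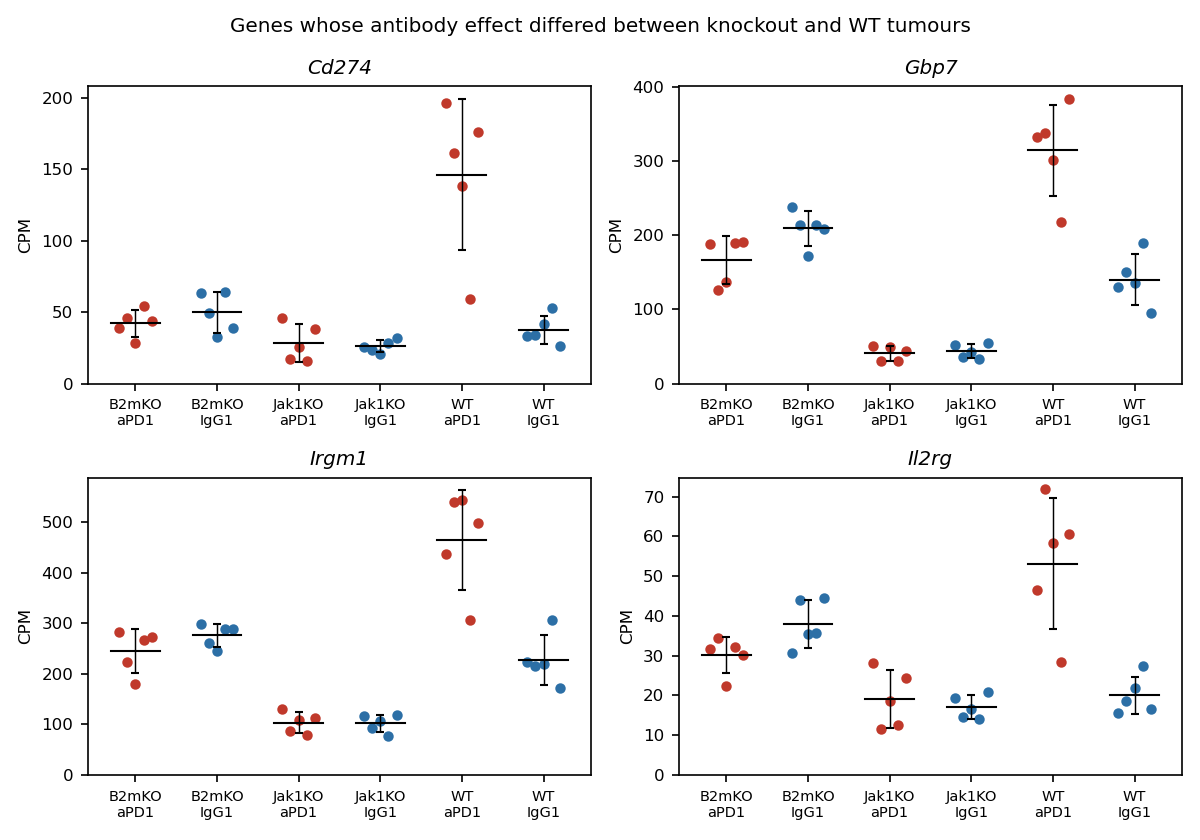
CPM in each library (points), with mean and SD, of 4 genes whose antibody effect in knockout tumours differed from that in WT tumours. The WT aPD1 points stand above the WT IgG1 points (for Cd274 59.3 to 196 against 26.2 to 52.6 CPM), while aPD1 and IgG1 points overlap in B2mKO and Jak1KO tumours.

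Some of these genes carry interferon response motifs close to their start sites. Promoter windows of 250 bases before to 50 after the start (RefSeq, GRCm38.p6) were found for 8 of the 10 genes with the smallest adjusted p for the difference. Both strands were searched for the gamma-activated site TTCNNNGAA, which reads alike on both strands, and for an interferon-stimulated response element, written as GAAA, any 2 bases and GAAA again. Gbp7 has 2 gamma-activated sites and 1 response element, Samhd1 1 gamma-activated site and Irgm1 2 overlapping response elements, and the windows of the other 5 matched genes hold neither. Of 32851 windows in the RefSeq table, 8.30% hold the first motif, 3.44% the second and 0.454% both. The windows shown are those of the 3 genes with a motif, marked in capitals.
Gbp7, chr3:142530086-142530385, plus strand: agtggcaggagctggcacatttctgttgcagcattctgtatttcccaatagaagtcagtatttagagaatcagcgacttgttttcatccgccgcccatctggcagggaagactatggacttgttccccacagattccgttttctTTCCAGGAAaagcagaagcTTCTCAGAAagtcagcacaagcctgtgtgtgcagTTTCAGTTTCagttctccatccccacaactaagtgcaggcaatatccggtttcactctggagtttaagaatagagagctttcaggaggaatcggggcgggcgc
Irgm1, chr11:48871371-48871670, minus strand: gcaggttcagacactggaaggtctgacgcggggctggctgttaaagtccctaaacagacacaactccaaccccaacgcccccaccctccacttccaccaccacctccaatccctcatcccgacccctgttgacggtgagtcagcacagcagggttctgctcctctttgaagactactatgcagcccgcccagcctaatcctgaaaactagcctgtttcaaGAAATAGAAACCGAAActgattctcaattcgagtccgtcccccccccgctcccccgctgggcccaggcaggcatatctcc
Samhd1, chr2:157135047-157135346, minus strand: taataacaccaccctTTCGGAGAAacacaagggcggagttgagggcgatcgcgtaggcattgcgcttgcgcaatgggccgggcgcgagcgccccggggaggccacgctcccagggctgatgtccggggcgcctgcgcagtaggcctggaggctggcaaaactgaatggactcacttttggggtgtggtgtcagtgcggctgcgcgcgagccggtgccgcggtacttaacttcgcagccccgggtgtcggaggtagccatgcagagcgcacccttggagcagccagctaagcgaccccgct
A match describes these letters and says nothing of binding in these tumours.

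By list, the difference passed for 8 of 30 interferon gamma response genes tested in all libraries, all lower, where 27 had passed in WT tumours, and the median effect was 0.064 in knockout tumours against 1.43 in WT tumours. Over all genes 0.4% passed as lower in the difference and 4.38% passed in WT tumours. None of the differences by list passed without WT aPD1 replicate 2, WT aPD1 replicate 5, WT IgG1 replicate 1 or WT IgG1 replicate 5. Without WT aPD1 replicate 2, 23 interferon gamma response genes passed in WT tumours and the WT medians were 1.38 for that list, 1.35 for T cells and 1.78 for MHC class II. Among the 8, Gbp4 had a difference of -1.53 ± 0.30 and Nlrc5, the transactivator of MHC class I genes, -1.61 ± 0.34. Of 22 MHC class I presentation genes 3 passed (Tap1 at -0.98 ± 0.19, Tap2 and Nlrc5), and the median effect was 0.034 in knockout against 0.46 in WT tumours. Tap1 was at 168 to 240 CPM in B2mKO tumours with aPD1 and 194 to 238 CPM with IgG1, and at 84.2 to 137 CPM in Jak1KO tumours with aPD1 and 94.2 to 115 CPM with IgG1, against 251 to 454 CPM in WT tumours with aPD1 and 145 to 257 CPM with IgG1. Of 22 surface and serine peptidases tested in all libraries 1 passed, the aminopeptidase gene Anpep (-1.44 ± 0.33, named after its value was seen), and of 18 checkpoint genes 1, Cd274. For dendritic cells 0 members passed the test of the difference, with medians of 0.31 in knockout and 0.25 in WT tumours. Knockout medians by list come from the pooled fit, which tested fewer genes of some lists. For T cells, cytotoxic effectors, NK cells, regulatory T cells, MHC class II and neutrophils 0 members passed the test of the difference as well. Their medians in knockout and WT tumours were nonetheless 0.22 against 1.70, 0.28 against 1.52, 0.23 against 1.44, 0.12 against 1.27, 0.40 against 1.99, and 0.072 against 0.74. The estimates had wide errors there, as for Ifng (-3.0 ± 1.27), Pdcd1 (-2.04 ± 0.70), Gzmb (-1.52 ± 0.73), the class II transactivator gene Ciita (-2.67 ± 0.82) and Ctla4 (-2.15 ± 0.67). The type I interferon response had medians of 0.0061 in knockout and 0.062 in WT tumours, with 0 genes past the threshold in either. Nab1 (-0.48 ± 0.09) and Rwdd2a (1.28 ± 0.28), named above for the pooled effect, passed too; in WT tumours Nab1 was at 80.7 to 107 CPM with aPD1 and 70.9 to 86.7 CPM with IgG1.

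**Figure D5:**
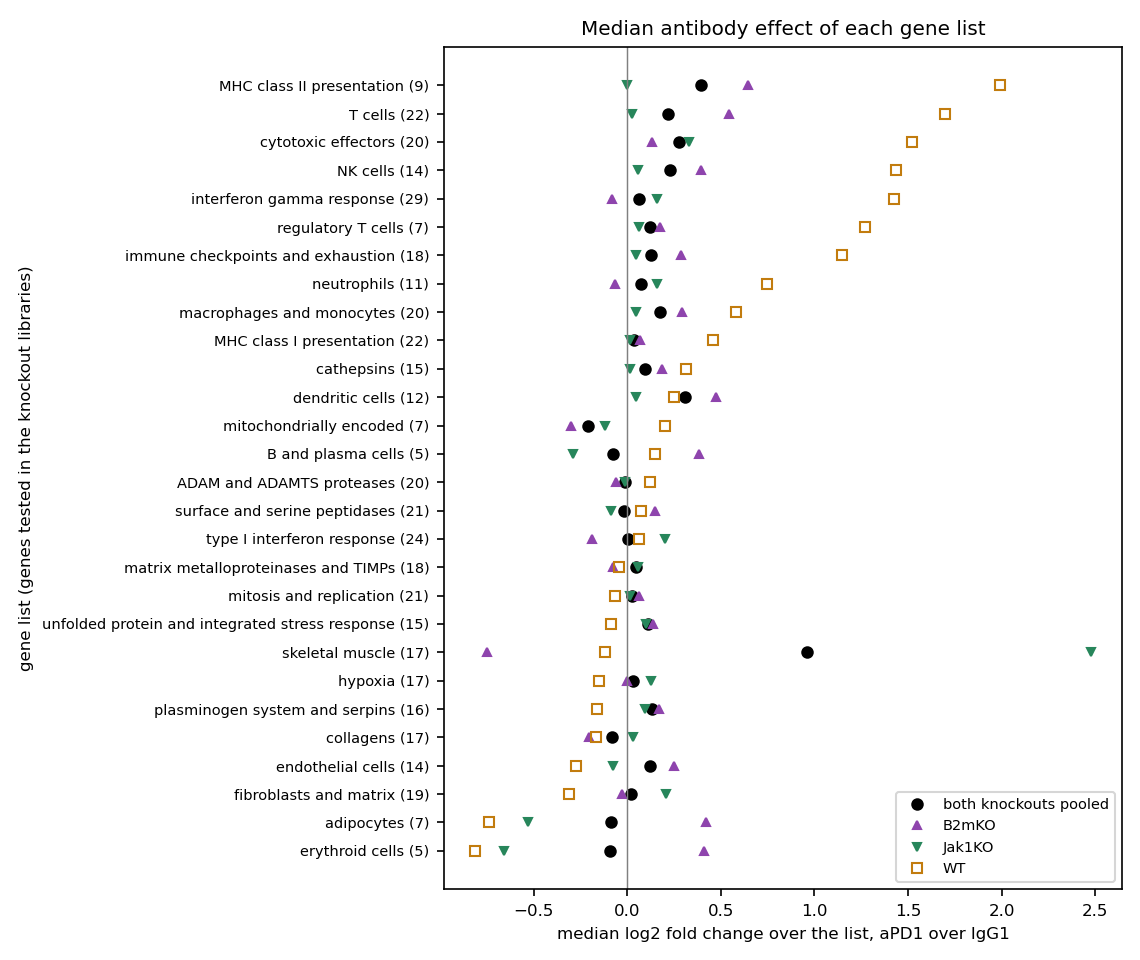
Median log2 fold change of aPD1 over IgG1 over each gene list with 5 or more genes tested, pooled over both knockouts (black), within B2mKO (upward triangles) and Jak1KO (downward triangles), and in WT tumours (open squares), ordered by the WT median. For immune lists at the top the WT square stands far to the right of the pooled point (1.43 against 0.064 for the interferon gamma response), while the skeletal muscle list splits by genotype.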

How the data were processed

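The authors deposited raw counts per gene for 30 bulk tumour RNA libraries (TruSeq). Per the file headers, reads were counted with featureCounts 2.0.0 at its defaults (no strand, no multi-mapping reads) on Ensembl GRCm38 release 99. FastQC 0.11.2, STAR 2.5.2a, Cufflinks 2.2.1 and edgeR 3.24.3 are named in the submitters' processing notes, without parameters. The 30 per-sample tables equalled the series table. Rows without a symbol held 0.047% of counts.

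Counts as deposited were fitted with edgeR 4.0.16 (R 4.3.3): TMM scaling, filterByExpr by group (count minimum 10, total minimum 15), the quasi-likelihood F test, with adjusted p (Benjamini-Hochberg) under 0.05 as threshold. The pooled effect came from the 20 knockout libraries with genotype and antibody as additive terms. Effects within a genotype used group means in the same libraries, and the comparison with WT used 6 group means in all 30. SE is the absolute log2 fold change over the square root of F, and intervals are 95%. DESeq2 1.42.0 and limma 3.58.1 were alternatives. The fits were tested on simulated counts.

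The members, the 30 gene lists and the tests were chosen with earlier results of these data known. Named genes were fixed genes (B2m, Jak1, Pdcd1, Cd274, Ifng and Gzmb), those with the smallest p in each comparison at a mean of at least 1 CPM (10 higher and 10 lower pooled, 10 for the difference from WT, 6 between genotypes), and up to 4 members per list with the smallest p. Predicted genes and pseudogenes were skipped, some genes that met the rule are not reported here, and exceptions are named as chosen after their values were seen. Depth was 17629795 to 25944701 counts per library. Chi-square over degrees of freedom was 7.09 to 228 in the 60 replicate pairs, above counting noise, so each library counted as 1 replicate.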

Additional observations from a re-analysis of the deposited data

Results flagged for a closer look

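Of 132 groups of 5 libraries examined, 15 had a library far from the other 4 (a gap above 0.71 of the group's range), where chance gives about 1 in 20 for independent normal values. CPM values are skewed, and the muscle sums and the muscle gene Myh7 are related. The 15 groups are therefore not read as an excess over chance. Summed skeletal muscle transcripts gave 6 of them, with 140 CPM in B2mKO aPD1 replicate 3, 345 CPM in B2mKO IgG1 replicate 5, 1312 CPM in Jak1KO aPD1 replicate 1, 237 CPM in Jak1KO IgG1 replicate 3, 647 CPM in WT aPD1 replicate 2 and 750 CPM in WT IgG1 replicate 2. The muscle gene Myh7 gave 3, with 7.6 CPM in B2mKO aPD1 replicate 3, 0.635 CPM in B2mKO IgG1 replicate 4 and 42.7 CPM in WT IgG1 replicate 2. Collagens summed to 13060 CPM in B2mKO aPD1 replicate 2, below the rest of its group, and mitochondrial transcripts to 18480 CPM in B2mKO IgG1 replicate 1. Single genes stood apart for Nab1 (98.1 CPM in B2mKO IgG1 replicate 1), Ap1ar (59.6 CPM in WT aPD1 replicate 1), Gzmb (19.3 CPM in WT IgG1 replicate 3) and Eln (33.2 CPM in WT IgG1 replicate 2).

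The antibody effect in knockout tumours differed from that in WT tumours, by the test of the difference in edgeR, for 16 of the genes examined. Most of them were named for a small p in this same test, so the count follows from that choice. Over all genes 70 of 15505 passed (0.451%). Without WT aPD1 replicate 2, WT aPD1 replicate 5, WT IgG1 replicate 1 or WT IgG1 replicate 5, 0 genes passed. The log2 difference was -2.02 for Cd274, -1.83 for Slco3a1, -1.61 for Nlrc5, -1.53 for Gbp4, -1.50 for Nod2, -1.50 for Il2rg, -1.38 for Gbp7, -1.21 for Samhd1, -1.11 for Irgm1, -0.98 for Tap1, -0.68 for Tap2, -0.56 for Ttc39b and -0.48 for Nab1. It was 1.28 for Rwdd2a, 2.84 for Kcne3 and 8.62 for Myh7. Several libraries held no Myh7 read, and single libraries stood far above their groups. Myh7 was at 42.7 CPM in WT IgG1 replicate 2 and at most 0.878 CPM in the rest of that group. It was at 7.6 CPM in B2mKO aPD1 replicate 3 and 3.12 CPM in Jak1KO aPD1 replicate 1. How far the Myh7 difference rests on these libraries was not tested.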

How the results depend on the processing

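The pooled count stayed at 0 under all 30 alternatives, with 221 to 934 genes at an unadjusted p under 0.05. The 934 came from the fit without a filter on low counts, which tested 33246 genes instead of 15077. The counts within B2mKO and within Jak1KO also stayed at 0. The count for B2mKO minus Jak1KO was 0 to 1 when single libraries were left out. The difference from WT, 70 genes, was 25 with a replicate block (16 shared), 44 without a filter on low counts, 26 with limma voom and 252 with DESeq2 (68 shared). Among alternatives added after seeing the data it was 24 with the legacy quasi-likelihood method, 43 without muscle-rich libraries (31 shared) and 0 without B2mKO aPD1 replicate 2 and WT aPD1 replicate 2 together, where 1804 genes had an unadjusted edgeR p under 0.05. Leaving out single libraries gave 0 to 358. The WT count of 679 was 63 in the 10 WT libraries alone, and 229 to 1110 when single libraries were left out. The cause was not tested. Replicate numbers did not pair the libraries: correlations of same-numbered deviations were -0.17 to 0.36 over 10 pairs, and 2 correlated best with their own number. Where differences of named genes from WT were rerun, none changed sign. Those of Nab1, Rwdd2a, Myh7 and Anpep were rerun only without WT aPD1 replicate 2, and WT effects of single genes were not rerun. No direction is read from effects that did not pass.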
